A study of Macaca radiata with 4 samples.

Results

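RLN2, the gene of the peptide hormone relaxin, was represented by 1 probe set, MmuSTS.3166.1.S1_s_at, of the 52766 on the array that are not controls. It was chosen as every probe set whose only symbol in the platform annotation is RLN2 (Entrez Gene 693473 of the rhesus macaque), which makes it 1 of 14132 genes with a probe set of 1 symbol. The ending "_s_at" marks a set whose probes are shared by more than 1 transcript, so signal from a closely related transcript could not be separated from that of RLN2 here.

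Relaxin belongs to the insulin family of peptides. It is made as a longer precursor, folded and joined by disulfide bonds in the endoplasmic reticulum, and cut to an A chain and a B chain by removal of a connecting peptide. In primates the corpus luteum is the main source of relaxin in the blood. The hormone acts through RXFP1, a G protein-coupled receptor that raises cyclic AMP, and is known for loosening connective tissue and for widening blood vessels.

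The corpora lutea came from female bonnet monkeys (Macaca radiata). Every animal, controls included, was treated on luteal day 7 with CET (150 µg/kg), an agent that per the labels inhibits the animal's LH release. After 24 h the control group was injected with PBS (0.5 ml) and the other group with rhLH at 20 IU/kg, and tissue was taken 8 h later. Each group has 2 arrays (PBS replicates 1 and 2, rhLH replicates 3 and 4), and the labels speak of 2 animals per group without tying arrays to animals. Ages are not given in the labels, and no group without CET was analysed here. The comparison asks which luteal transcripts differ once LH is given back. In whole tissue, fewer cells of a type and less RNA per cell cannot be told apart.

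One array stood apart. PBS replicate 1 correlated with the other arrays at r = 0.752 to 0.780 across 31659 probe sets, while those correlated with each other at 0.940 to 0.947. Its brightest probe set had a signal of 32179, against 62826 to 72865 on the others. The ratio of 3′ to 5′ signal of the control probe sets for ACTB, a measure of RNA integrity, was 11.2 on that array and between 1.49 and 1.59 elsewhere. For GAPDH it was 3.23 against 1.62 to 2.28. Differences are therefore given against each PBS array as well as against their mean.

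RLN2 gave a strong signal on every array, and both rhLH arrays lay above both PBS arrays. Its signal was 19155 on PBS replicate 1, 18901 on PBS replicate 2, 26628 on rhLH replicate 3 and 28681 on rhLH replicate 4. The group means were 19028 ± 179 (SD, n = 2) with PBS and 27654 ± 1451 (SD, n = 2) with rhLH, a 1.45-fold difference on the log2(signal + 16) scale. The 4 pairs of an rhLH and a PBS array gave 1.39-fold, 1.41-fold, 1.50-fold and 1.52-fold. The pooled log2 difference was 0.54 (SE 0.36, 95% interval −0.35 to 1.43) and did not pass the limma test (unadjusted p = 0.187, adjusted p = 0.919). The exact two-sided permutation test over the 4 arrays gave p = 0.333, the smallest p this design allows.

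No probe set passed that limma test at an adjusted p of 0.05 (0 of 31659, 0.0%), and 641 (2.02%) had an unadjusted p under 0.05. The arrangement seen for RLN2, both rhLH arrays above both PBS arrays, was shared by 4573 of the 31659 probe sets (14.4%), and 5608 (17.7%) had the opposite one. RLN2 ranked 5030 by unadjusted p.

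On the deposited scale the 2 PBS arrays gave nearly the same RLN2 value although they differed widely elsewhere. The log2 signals of RLN2 on them differed by 0.019, whereas the median absolute difference between these arrays was 0.74 over all probe sets tested, and 1.47% of probe sets differed by less than RLN2. Between the rhLH arrays the RLN2 difference was 0.11, against a median of 0.29. The limma SE draws on the spread of all probe sets of similar level, so it exceeds what the 4 RLN2 values show by themselves (SD on the log2 scale 0.014 with PBS and 0.076 with rhLH). After quantile normalization, described below, the log2 values of RLN2 on the PBS arrays were 14.85 and 14.04. Their closeness thus depended on the scaling.

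Leaving out either PBS array hardly moved the estimate. With PBS replicate 1 as the only control the log2 difference was 0.53 (adjusted p = 0.0651), and with PBS replicate 2 it was 0.55 (adjusted p = 0.652), within a range of 0.0651 to 1.0 over 13 alternatives. Without rhLH replicate 3 it was 0.59, and without rhLH replicate 4 it was 0.48. Quantile normalization, which gives all arrays the same distribution of values, lowered it to 0.16 (SE 0.34, adjusted p = 0.931). After that step the RLN2 signal was 29551 on PBS replicate 1, above 24059 and 26016 on the rhLH arrays, and 16880 on PBS replicate 2, below both. The rhLH arrays were then 0.24 lower than PBS replicate 1 (log2 −0.24) and 0.57 higher than PBS replicate 2, so its sign against PBS replicate 1 depended on the scaling.

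**Figure D1:**
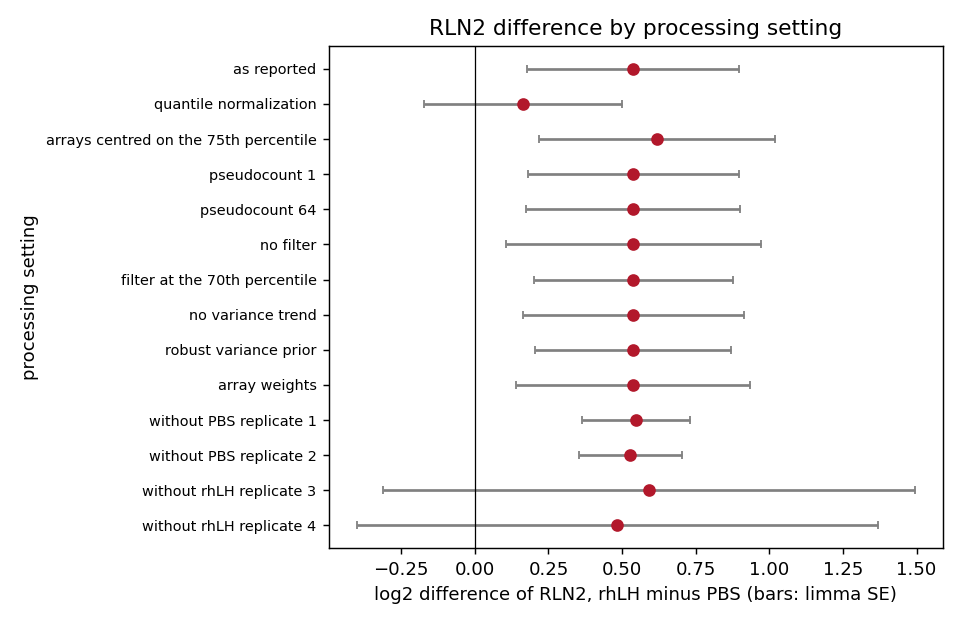
Log2 difference of RLN2 (rhLH minus PBS, horizontal axis) under each processing setting (vertical axis). Points are limma estimates and bars their SE. The estimate lies between 0.48 and 0.62 in every setting shown except quantile normalization, where it is 0.16.

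The rank of RLN2 within each array did not separate the groups. Among all probe sets other than controls it ranked 94 on PBS replicate 1, 272 on PBS replicate 2, 154 on rhLH replicate 3 and 130 on rhLH replicate 4, where 1 is the brightest. Counted by the brightest probe set of each gene, its ranks in the same order were 44, 145, 81 and 66 of 14132. The rhLH arrays thus lay between the PBS arrays, with RLN2 highest in rank on PBS replicate 1 and lowest on PBS replicate 2. The signal of a probe set depends on how well its probes bind as well as on the amount of transcript, so ranks order signals and not transcript amounts.

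The signal stood far above the middle of each array. It was 103 and 136 times the array's median signal with PBS and 196 and 212 times with rhLH. As a share of the signal summed over all probe sets other than controls, RLN2 made up 0.0524% and 0.0442% with PBS and 0.0634% and 0.0685% with rhLH, so by this measure too both rhLH arrays lay above both PBS arrays. Relative to the brightest probe set of its array it reached 59.5% on PBS replicate 1, 25.9% on PBS replicate 2, 36.8% on rhLH replicate 3 and 45.7% on rhLH replicate 4, and here PBS replicate 1 was highest.

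**Figure D2:**
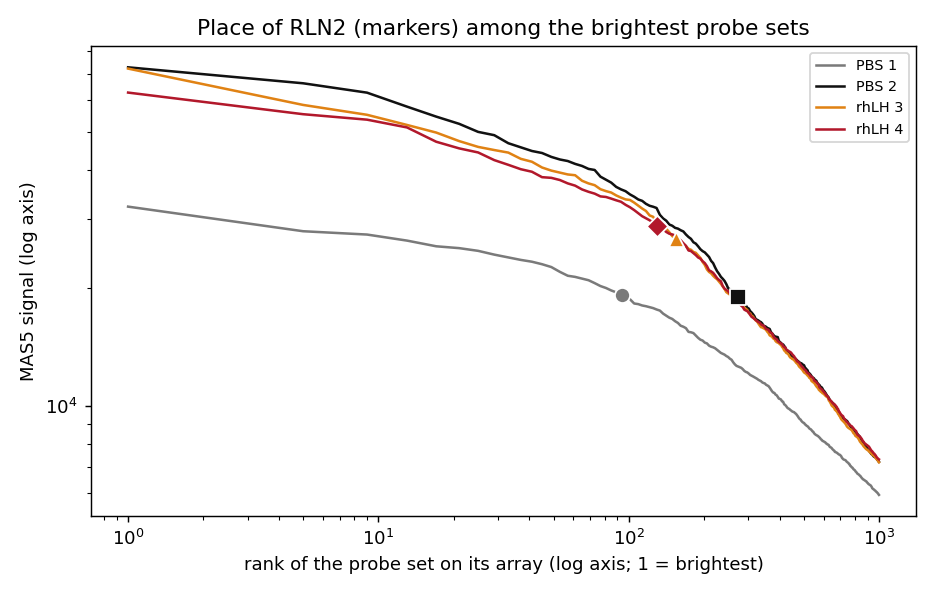
Signal (vertical, log axis) against rank (horizontal, log axis) for the brightest probe sets of each array, controls left out, with markers for RLN2. The curve of PBS replicate 1 lies below the others over the ranks shown, so a signal of 19155 ranks 94 there while 18901 ranks 272 on PBS replicate 2.

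The genes next to RLN2 in rank differed from array to array. On PBS replicate 1 the places directly above it were held by FN1, which encodes the matrix protein fibronectin, and the ribosomal protein gene RPL9. Directly below were LYAR and LOC696935. On PBS replicate 2 its neighbours were ULK4 and IGFBP2, an IGF-binding protein, above, and FAM127A and LOC701799 below. On rhLH replicate 3 they were LOC693472 and the respiratory chain gene COX6B1 above, with the ATP synthase gene ATP5MG and the dynein light chain gene DYNLL1 below. On rhLH replicate 4 they were the ribosomal protein gene RPS21 and CPQ above, with ELOA and LOC710665 below. Of these 16 genes, 4 had both rhLH arrays above both PBS arrays, LYAR, DYNLL1, RPS21 and CPQ, and 0 had both below, against 16.3% and 16.1% of all genes. All 16 were higher with rhLH than on PBS replicate 1 (log2 0.36 to 2.10), and 5 were higher than on PBS replicate 2 (−0.27 to 0.27 over all 16). RLN2, at 0.55 against PBS replicate 2, lay outside that range on the deposited scale. The 16 genes were picked by the rank of RLN2 itself, so this contrast is a description only.

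The 12 genes with the highest mean signal formed the top of the luteal profile. They were TIMP1, an inhibitor of matrix metalloproteases, the actin-binding thymosins TMSB10 and TMSB4X, the actin ACTG1, STAR, which carries cholesterol into the mitochondrion, IGFBP7, the MHC class I light chain B2M, the lysosomal enzyme FUCA1, the proteoglycan SRGN, the ribosomal protein gene RPL17, LOC711964 and LOC694967. Their signals ran from 21015 to 29388 on PBS replicate 1 and from 47830 to 72865 on PBS replicate 2, and all 12 were 1.82-fold to 2.57-fold brighter on the latter. For RLN2 that ratio was 0.987 on the deposited scale. With rhLH, signals ran from 36764 to 63082 on replicate 3 and from 42509 to 62826 on replicate 4.

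None of the 12 separated the groups on the deposited scale. All of them were there higher with rhLH than on PBS replicate 1 (log2 0.53 to 1.21) and lower than on PBS replicate 2 (−0.46 to −0.04). STAR, for instance, had signals of 24283 and 54566 with PBS and of 52570 and 51660 with rhLH, a pooled log2 difference of 0.52 (SE 0.53) made up of 1.10 and −0.07. RLN2 had a similar pooled difference of 0.54, made up of 0.53 and 0.55 on that scale. After quantile normalization the parts for RLN2 were −0.24 and 0.57, so its rhLH arrays then lay between the PBS arrays. Quantile normalization moved the median pooled difference of the 12 genes from 0.41 to 0.01, with 2 (16.7%) then above and 1 (8.33%) below both PBS arrays. The shares over all genes on that scale were 17.3% and 14.4%. Over the 528 probe sets above the 99th percentile of mean signal, a range picked after the values were seen, 99 (18.8%) had both rhLH arrays above both PBS arrays. The share over all tested probe sets was 14.4%. Against PBS replicate 1 the median difference of the 528 was 0.73, and it was −0.07 when PBS replicate 2 was the control.

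**Figure D3:**
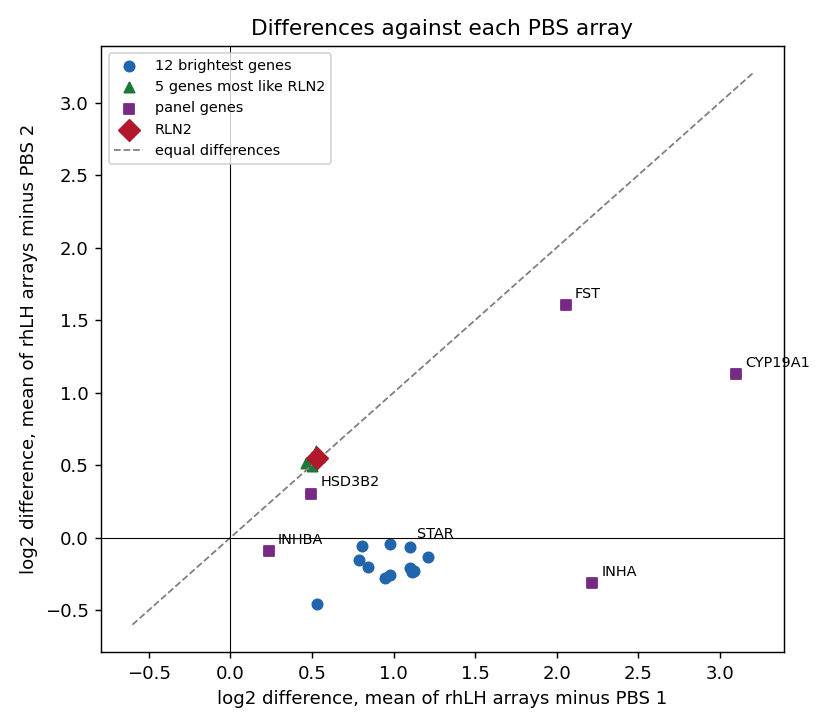
Log2 difference of the mean of the rhLH arrays from PBS replicate 1 (horizontal) and from PBS replicate 2 (vertical) for RLN2, the 12 brightest genes, the 5 genes most like RLN2 and 5 panel genes. RLN2 lies on the line of equal differences at 0.53 and 0.55, while the 12 brightest genes all lie below 0 on the vertical axis. Values are on the deposited scale, and quantile normalization changed those of RLN2 to −0.24 and 0.57.

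No other tested peptide of the relaxin family had both rhLH arrays above both PBS arrays on the deposited scale. After quantile normalization RLN2 did not either. Of the 7 family genes 5 had a probe set, and 2 of them, RLN2 and INSL4, passed the filter, which kept probe sets with a mean signal above 90.7. INSL4, an insulin-like peptide known from the placenta, had 2 probe sets. The first, MmugDNA.8536.1.S1_s_at, gave 2603 and 8374 with PBS and 8830 and 7671 with rhLH, so PBS replicate 1 was low and the other 3 arrays were alike (log2 0.81, SE 0.58). The second, MmugDNA.21004.1.S1_at, gave 2279 and 8545 with PBS and 2829 and 10135 with rhLH, with 1 low array in each group (log2 0.28, SE 0.83). The 2 probe sets thus disagreed on rhLH replicate 3.

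RLN3, a neuropeptide, INSL5, a gut peptide, and INSL6, known from the testis, lay below the filter level on all 4 arrays. Their signals ranged from 16.6 to 70.8, from 53.1 to 74.5 and from 20.2 to 75.4. Detection calls were not used here, so no statement on presence is made. RLN1 and INSL3 had no probe set of 1 symbol and were not analysed here.

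Of the more distant insulin relatives, IGF1, a growth factor, was measured by 4 probe sets and IGF2 by 1. The brightest IGF1 set, MmugDNA.4061.1.S1_at, gave 2993 and 3869 with PBS and 4670 and 4697 with rhLH, with both rhLH arrays above both PBS arrays (log2 0.46, SE 0.32). Of the others, MmuSTS.628.1.S1_at differed by 0.39 (SE 0.37), MmugDNA.7733.1.S1_at by 0.52 (SE 0.53) and the dimmest, MmugDNA.38092.1.S1_at, by −0.61 (SE 0.44), with both rhLH arrays below both PBS arrays. The IGF1 probe sets therefore disagreed in direction. IGF2 gave 544 and 1052 with PBS and 960 and 1064 with rhLH (log2 0.41, SE 0.42).

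The relaxin receptor gene RXFP1 was dim. It gave 297 and 123 with PBS and 168 and 153 with rhLH, so the rhLH arrays lay between the PBS arrays (log2 −0.24, SE 0.60). RXFP3, the receptor of RLN3, lay near the filter level with signals of 150 and 76.2 with PBS and 43.4 and 82.3 with rhLH, and was not tested. RXFP2 and RXFP4 had no probe set of 1 symbol and were not analysed here. None of the tested probe sets of these families passed the limma test (adjusted p = 0.919 for RLN2).

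**Figure D4:**
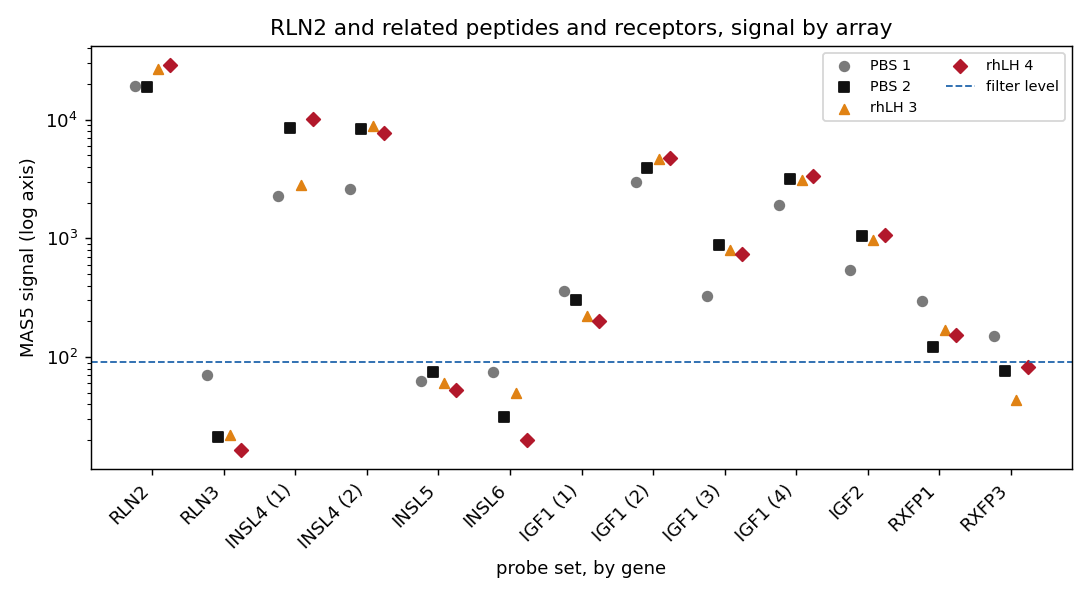
MAS5 signal (vertical, log axis) of each probe set of the relaxin family, insulin relatives and receptors (horizontal) on the 4 arrays. Markers give the array, the dashed line is the filter level of 90.7, and numbers in brackets count the probe sets of 1 gene. RLN2 has both rhLH arrays above both PBS arrays, and RLN3, INSL5 and INSL6 lie under the line.

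The steps around the hormone were followed in 11 gene lists with 200 genes, of which 131 had a probe set that passed the filter. Of these 131, 0 passed the limma test at an adjusted p of 0.05, and 7 had an unadjusted p under 0.05 (209 of all 10998 genes, 1.9%). Both rhLH arrays lay above both PBS arrays for 24 and below for 16, against 16.3% and 16.1% of all genes. The median difference over the lists was 0.30, and 0.02 over all genes. After quantile normalization 22 (16.8%) lay above and 15 (11.5%) below, against 17.3% and 14.4% of all genes on that scale. The median was then 0.23, and 0.059 over all genes. The lists were drawn up with earlier results of these data known, so the counts describe the lists and support nothing further. In what follows, 2 values in brackets are log2 differences against PBS replicate 1 and PBS replicate 2, and a gene is called higher or lower only for the order of the arrays.

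Of 30 listed genes that fold and cut secreted precursors, 22 had a probe set and 20 passed the filter. The cutting enzymes were measured less fully. PCSK1, PCSK6 and CPE had no probe set of 1 symbol, and PCSK2 did not pass the filter, while FURIN, PCSK5, PCSK7 and CPD were tested. Of 20 tested members of the prohormone processing list, 7 had both rhLH arrays above both PBS arrays and 2 had both below. The shares over all genes were 16.3% and 16.1%. The list had a median of 0.25 (0.29 and 0.18). PDIA3, a disulfide isomerase of the endoplasmic reticulum, gave 5426 and 8513 with PBS and 10752 and 11017 with rhLH (log2 0.68, SE 0.37). The groups did not overlap for it, nor for SEC61A1, the pore of the protein translocon (1.80 and 0.22), and SSR4, a subunit of the translocon-associated complex (1.67 and 0.15). P4HB, the brightest member and also a disulfide isomerase, differed by 0.77 and −0.19. The other members above, named after their values were seen, were PDIA4 (0.34 and 0.34), the signal peptidase subunit SEC11A (0.22 and 0.21), SSR2 (0.99 and 0.07) and SSR3 (0.89 and 0.23). The 2 below, also named after their values were seen, were the precursor-cutting protease FURIN (−0.36 and −0.45) and the sulfhydryl oxidase QSOX1 (−0.45 and −0.17). For QSOX1 the closest arrays were nearly equal, at 1417 on PBS replicate 2 and 1403 on rhLH replicate 3.

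Genes of secretory granules and release had a median of 0.40 over 10 genes (0.89 and −0.09). Of them 2 lay above and 1 below, against 16.3% and 16.1% of all genes. CHGB, a granin of dense-core granules, gave 103 and 95.2 with PBS and 991 and 213 with rhLH, so the 2 rhLH arrays lay above but far from each other (log2 2.06, SE 0.77, limma unadjusted p = 0.0383). RAB3A, a GTPase of vesicle release, differed by 0.99 and 0.52, and VAMP8, the brightest member, by 0.95 and −0.04. CADPS, which primes vesicles for release and was named after its values were seen, lay below (−0.28 and −0.45).

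Genes that carry the signal of the relaxin receptor had a median of −0.02 over 18 genes (−0.21 and 0.02). Of them 1 lay above and 2 below, against 16.3% and 16.1% of all genes. PIK3CB, a catalytic subunit of PI3-kinase, lay below (−0.70 and −0.38), and the G protein subunit GNB1 (2.16 and −0.11) and the kinase MAPK3 (2.14 and −0.14) took opposite signs against the PBS arrays. MAP2K1 (0.52 and 0.18) and the protein kinase A subunit PRKACB (−0.55 and −0.15), named after their values were seen, were the remaining 2. For MAP2K1 the closest arrays were nearly equal, at 1753 on PBS replicate 2 and 1760 on rhLH replicate 4.

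Known targets of relaxin in matrix and vessels had a median of 0.23 over 19 genes (0.36 and −0.16). Of them 0 lay above and 2 below, against 16.3% and 16.1% of all genes. COL3A1, a fibrillar collagen, gave 788 and 329 with PBS and 228 and 316 with rhLH (log2 −0.89, SE 0.55). The other was TGFB1 (−0.25 and −0.26), named after its values were seen. MMP9, a gelatinase, gave 161 and 287 with PBS and 849 and 240 with rhLH, so 1 rhLH array was high and the groups overlapped. COL1A2 differed by 0.93 and −0.02, and TIMP1, the brightest of all genes, by 1.10 and −0.21.

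Other peptides and carriers secreted by the corpus luteum had a median of 0.44 over 23 genes (0.64 and −0.21). Of them 3 lay above and 3 below, against 16.3% and 16.1% of all genes. FST, the gene of follistatin, which binds activin, stood well apart (2.06 and 1.60; limma unadjusted p = 0.00148). IGF1 lay above as described, and IGFBP4, named after its values were seen, differed by 1.57 and 0.31. Below were the epidermal growth factor family ligands AREG (−0.93 and −1.60) and BTC (−2.77 and −0.62) and, named after its values were seen, the vasodilator peptide ADM (−0.22 and −1.23). For BTC the closest arrays were nearly equal, at 393 on PBS replicate 2 and 388 on rhLH replicate 4. Of the inhibin genes, INHA gave 7756 and 44827 with PBS and 36496 and 35762 with rhLH (2.22 and −0.31), and INHBA differed by 0.23 and −0.10.

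Transcription factors tied to control of the relaxin gene had a median of 0.38 over 18 genes (0.73 and 0.01). Of them 3 lay above and 2 below, against 16.3% and 16.1% of all genes. The nuclear receptors NR5A2 (0.90 and 0.35) and ESR2 (1.45 and 0.64) lay above, as did the cAMP-responsive factor CREM (0.79 and 0.38). ESR2 gave 58.4 and 115 with PBS, a mean of 86.6 and under the filter level of 90.7, and 149 and 236 with rhLH. Its mean passed the filter only through the rhLH arrays, so its place in any count given here is not support. The orphan receptor NR4A1 (−0.87 and −2.03) and GATA4 (−0.39 and −0.62) lay below. For NR4A1 the closest arrays were nearly equal, at 1633 on PBS replicate 1 and 1605 on rhLH replicate 4. CREM and GATA4 were named after their values were seen. CEBPB, the brightest member, differed by 1.13 and −0.34.

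Genes of the LH receptor pathway had a median of −0.43 over 13 genes (−0.55 and −0.12). Of them 1 lay above and 5 below, against 16.3% and 16.1% of all genes. RGS2, which dampens G protein signals and was the brightest member, lay above (2.12 and 0.55). RAPGEF4, an exchange factor activated by cAMP, gave 463 and 612 with PBS and 159 and 89.4 with rhLH (log2 −2.01, SE 0.50), and the cyclase ADCY9 lay below too (−0.73 and −0.38). The remaining members below, named after their values were seen, were ADCY3 (−0.69 and −0.12), PRKACB, and the cAMP phosphodiesterase PDE4B (−0.26 and −0.60). The LH receptor gene LHCGR itself had no probe set of 1 symbol and was not analysed here.

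Genes of steroid synthesis, the other main product of the tissue, had a median of 0.52 over 11 genes (1.22 and 0.02). Of them 6 lay above and 0 below, against 16.3% and 16.1% of all genes. HSD17B1 (1.91 and 2.21), CYP19A1 (3.10 and 1.13) and HSD17B7 (1.22 and 0.96), which act in estrogen or cholesterol synthesis, had unadjusted limma p-values of 0.00926, 0.0224 and 0.0235. HSD17B1 gave 67.1 and 51.4 with PBS, under the filter level of 90.7, and 273 and 319 with rhLH. It passed the filter only through the rhLH arrays, so neither its p-value nor its place in any count given here is support. HSD3B2, which makes progesterone, gave 25500 and 29153 with PBS and 33922 and 38138 with rhLH (0.50 and 0.30). Like RLN2 it was a bright gene with both rhLH arrays above both PBS arrays on the deposited scale (its pooled difference of 0.40 became −0.0098 under quantile normalization), and its rank among genes was 9 and 75 with PBS and 46 and 22 with rhLH. POR (1.42 and 0.02) and HSD11B1 (0.65 and 0.03) also lay above and were named after their values were seen.

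**Figure D5:**
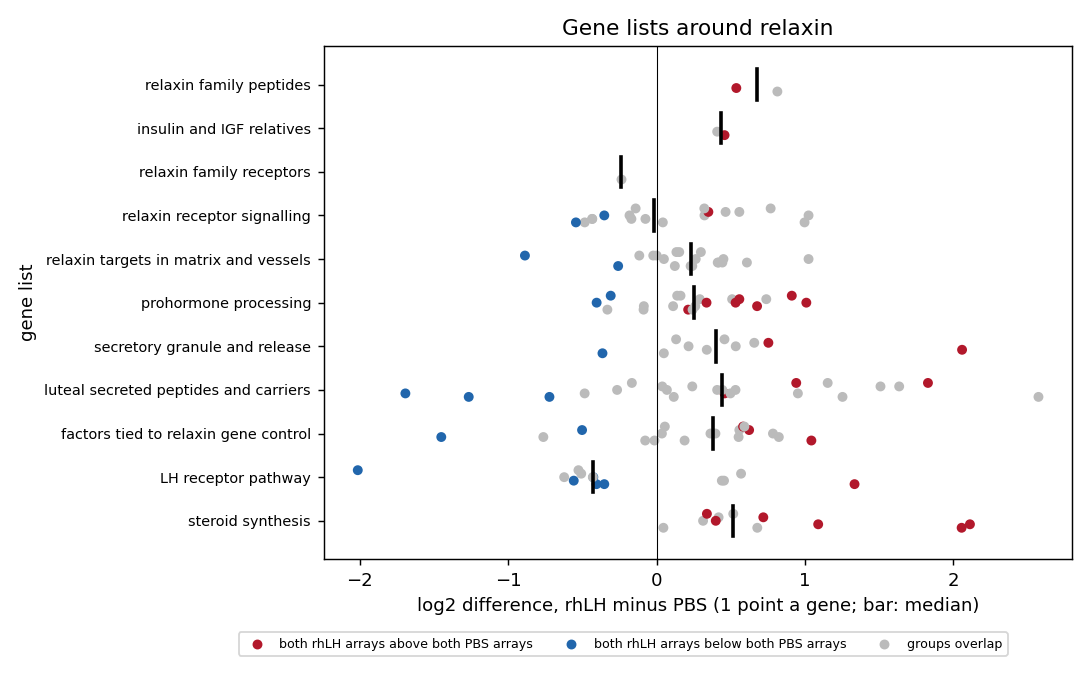
Log2 difference (rhLH minus PBS, horizontal) of each tested gene in the 11 lists (vertical). A point is 1 gene, coloured by whether both rhLH arrays lie above or below both PBS arrays, and black bars are medians. The LH receptor pathway has the lowest median, −0.43, and relaxin family peptides, with 2 tested genes, the highest, 0.68.

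The genes whose values over the 4 arrays were most like those of RLN2 were found by the root mean square of the difference between log2 deviations from each gene's own mean, among 10997 genes. ING5, which encodes a chromatin reader, came first at 0.0055, followed by RPUSD4, a mitochondrial RNA-modifying enzyme, at 0.020, the small GTPase ARL2 at 0.026, PTPRN, a membrane protein of dense-core granules, at 0.030, and SECISBP2L, an RNA-binding protein, at 0.038. The deviations of RLN2 were −0.26, −0.28, 0.22 and 0.32 on the 4 arrays in order, and those of ING5 −0.27, −0.28, 0.22 and 0.33. ING5 was dim, with signals of 132 and 131 with PBS and 192 and 208 with rhLH. PTPRN gave 685 and 653 with PBS and 978 and 1010 with rhLH. The pooled log2 differences of the 5 ran from 0.49 to 0.56. With 4 arrays in 2 groups this likeness says only that the arrays took a similar order and spacing.

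Of 13 granulosa-lutein markers 9 had a probe set, and none was listed at 0. STAR, HSD3B2 and INHA were the brightest, while AMH (47.8 to 238), HSD17B1 and AMHR2 were dim. The summed signal of the 9 was 70269 and 152580 with PBS and 158100 and 163550 with rhLH, so it too was higher on both rhLH arrays, and 5 of the 9 had both rhLH arrays above both PBS arrays, an order found for 16.3% of all genes. Summed theca-lutein markers (6 of 8 with a probe set) overlapped, at 31389 and 70019 with PBS and 63206 and 63619 with rhLH. So did those of endothelium (9 of 10), fibroblasts (5 of 6) and macrophages (8 of 9). Summed signals were higher on both rhLH arrays for T and NK cells (3 of 8; 4737 and 11059 with PBS, 16061 and 16130 with rhLH), where GZMB made up most of it. The same held for epithelium (6 of 6; 1204 and 2676 with PBS, 3932 and 3430 with rhLH), where KRT18 and KRT8 led and EPCAM stayed at 5.15 to 7.19, these 4 genes being named after their values were seen. It also held for pericytes and smooth muscle (4 of 8; 5408 and 9580 with PBS, 10354 and 10154 with rhLH), where TAGLN was the only one of the 4 with both rhLH arrays above both PBS arrays (2668 and 2568 with PBS, 6118 and 6561 with rhLH). MYH11 in that list gave 1865 and 4501 with PBS and 2584 and 1318 with rhLH. AMH, AMHR2, TAGLN and MYH11 were also named after their values were seen. For red cells (2 of 5) the groups overlapped. The part of these shifts, and of the RNA integrity of PBS replicate 1, in the RLN2 difference was not tested.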

How the data were processed

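Total RNA of corpora lutea was hybridised to 4 Affymetrix rhesus macaque arrays, and the authors deposited 1 linear intensity per probe set and array, computed with MAS5 per the submitters' processing notes. All arrays had a 2% trimmed mean of 500.0. How that scale was set, and any detection call or filter, is not given in the sources used here. No genome or probe sequence was used, so no coordinates are given, and mismatches of rhesus probes to bonnet monkey transcripts were not examined. Gene symbols came from the platform annotation: of 52766 probe sets, after 99 controls were set aside, 24956 had 1 symbol, 361 several and 27449 none.

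Signals were analysed as log2(signal + 16). Probe sets with a mean log2 above the 40th percentile were kept (31659, covering 10998 genes), and a gene is given by its brightest kept probe set. The comparison of rhLH with PBS was fitted across them with limma 3.58.1 in R 4.3.3 (lmFit, then eBayes with a variance trend). The p-values were two-sided and Benjamini-Hochberg adjusted, with a threshold of 0.05. The fit was checked on simulated data with equal noise on all 4 arrays, which does not cover an array that stands apart. Labels do not tie arrays to animals, so p-values measure the spread between arrays, which may be partly technical, and the number of arrays limits precision.

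RLN2, the lists and the rule for named genes were chosen with earlier results of these data known. The rule takes the RLN2 probe set, the 12 brightest genes, the 2 genes on either side of RLN2 in rank, all relaxin and insulin family members, from each other list the 3 genes with the smallest p and the brightest, the 5 genes most like RLN2, and a panel (CYP19A1, STAR, HSD3B2, INHBA, INHA, FST and CYP11A1, the last without a kept probe set). Other genes named are marked as chosen after their values were seen. Alternatives covered normalization, pseudocounts of 1 and 64, filters, variance priors, array weights and leaving out each array.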

Additional observations from a re-analysis of the deposited data

How the results depend on the processing

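RLN2 stayed higher with rhLH and short of the limma threshold under all 13 refits. The log2 difference ran from 0.48 to 0.59 with 1 array left out and from 0.16 (quantile normalization) to 0.62 (arrays centred on the 75th percentile) otherwise. With 1 array left out, the lone array of its group was assumed to vary like the other group. The count of probe sets past the adjusted threshold ran from 0 to 8027 with 1 array left out, and that of list members from 0 to 48, both highest without PBS replicate 2, where the array that stood apart was the only control. Both counts were 0 under all other alternatives.

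Under quantile normalization TIMP1, the brightest probe set with a symbol, moved to 0.0, HSD3B2 to −0.0098 and INHBA to −0.087. With 1 array left out, log2 differences ran from −0.21 to 1.10 for TIMP1, −0.066 to 1.10 for STAR, −0.67 to 1.23 and −0.025 to 1.66 for the INSL4 probe sets, −0.17 to 1.21 for IGF1 (MmugDNA.7733.1.S1_at), −0.057 to 0.87 for IGF2, −0.83 to 0.35 for RXFP1, −0.11 to 2.16 for GNB1, −0.14 to 2.14 for MAPK3, −0.024 to 0.93 for COL1A2, −0.19 to 0.77 for P4HB, −0.036 to 0.95 for VAMP8, −0.34 to 1.13 for CEBPB, −0.10 to 0.23 for INHBA and −0.31 to 2.22 for INHA. The causes were not tested. Under quantile normalization the median of the relaxin receptor signalling list changed from −0.02 to 0.02, and the other 10 list medians kept their sign. The rank of RLN2 among genes is given beside its rank among probe sets. RLN2 was represented by 1 probe set, so the planned comparison of others was not run. No paired analysis was possible because the groups share no replicate number.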
